A study of Mus musculus with 6 samples.

Results

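The 9 genes described here encode the membrane sensors of the unfolded protein response, the proteases that release some of them, and the transcription factor Xbp1 that acts directly below one of them. They were chosen by symbol as Ern1, Xbp1, Atf6, Atf6b, Eif2ak3, Mbtps1, Mbtps2, Creb3 and Creb3l2, and each matched 1 of the 55401 Ensembl identifiers in the deposited matrix. The response begins in the endoplasmic reticulum (ER) when unfolded protein accumulates. The kinase and nuclease IRE1 (Ern1) then cuts a short stretch out of Xbp1 mRNA, the kinase PERK (Eif2ak3) phosphorylates the translation factor eIF2alpha, and the precursors ATF6 and ATF6B travel to the Golgi, where the site-1 protease (Mbtps1) and the site-2 protease (Mbtps2) free their transcription factor domains. In blood-forming stem cells this response is known to weigh adaptation against death under ER stress.

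The libraries came from mouse bone marrow hematopoietic stem cells sorted as CD48-CD150+LSK, that is, without lineage markers, with Sca-1 and c-Kit, with CD150 and without CD48. Of the 6 libraries, 3 were controls from Emp1fl/fl mice, which carry floxed alleles of the membrane protein gene Emp1 and no Cre, and 3 were from Emp1fl/fl,Tie2-Cre mice, called Emp1-deficient here, in which the same alleles meet a Cre recombinase driven by the Tie2 promoter. That promoter is active in endothelial as well as blood-forming cells, so the deletion is not limited to blood. The labels give no treatment, age or sex and do not say whether a replicate was a separate mouse or a pool, so each p-value reflects the scatter of these libraries, which may be technical. The series title names ER stress, and the comparison asked whether its sensors differed in level between the genotypes.

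Values are FPKM (fragments scaled by transcript length and by library size), which allow levels to be set side by side between genes. Emp1 measured 3.25, 2.64 and 4.32 FPKM in the control libraries, against 0.58, 0.70 and 0.27 FPKM in the Emp1-deficient ones, in the direction of the labels. All 11 stem cell and gate markers on the list used, among them Kit, Hlf and Slamf1, reached 1 FPKM in at least 3 libraries, with summed levels of 736 to 905 FPKM in controls and 618 to 837 FPKM in Emp1-deficient libraries. Cd48, which the gate selects against, was still read at 22.9 to 49.6 FPKM. Summed markers of other cells, in controls and in Emp1-deficient libraries, ranged from 366 to 399 and 335 to 388 FPKM for monocytes and dendritic cells (Lyz2 and Cd74 highest), 612 to 782 and 570 to 966 FPKM for neutrophils (Prtn3 and S100a8), 79.99 to 191 and 82.1 to 143 FPKM for erythroid cells (Hbb-bt and Epor), 87.8 to 109 and 71.6 to 109 FPKM for endothelial cells (Pecam1 and Vwf), and 42.4 to 255 and 43.9 to 47.3 FPKM for B cells (Ighm and Cd79b). Within the first of these lists Irf8 (13.9, 18.2 and 11.1 against 7.15, 5.94 and 5.66 FPKM) and Csf1r (7.72, 6.92 and 11.7 against 5.15, 4.03 and 2.24 FPKM) were lower in every Emp1-deficient library. The T and NK cell list alone did not overlap (199 to 265 and 268 to 377 FPKM, exact permutation p = 0.1), which came from Nkg7, while Cd3d, Cd3g and Cd8a stayed under 0.5 FPKM and Cd4 went the other way (3.36, 6.47 and 4.51 against 1.16, 1.06 and 0.57 FPKM). The endothelial sum came mostly from Pecam1 and Vwf, while Cdh5 (0.05 to 0.64 FPKM) and Flt4 (0.15 to 0.48 FPKM) stayed low. Most of the neutrophil sum was Prtn3, at 443 FPKM on average, against 12.0 FPKM for Ngp and 3.06 FPKM for Ltf. A sum therefore does not measure how many cells of a type were present. The part of these markers in the results below was not tested. Absolute depth is unknown, and relative depth, estimated from short single-exon genes and set to 1 for control replicate 1, ran from 0.692 in control replicate 2 and Emp1-deficient replicate 1 to 1.74 in Emp1-deficient replicate 3, taking the most frequent low value of such genes to hold equally many fragments in each library, which was not tested.

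The stretch that IRE1 removes from Xbp1 mRNA is shown because a gene-level FPKM counts cut and uncut mRNA alike, so that no value below measures IRE1 activity. In the main Xbp1 transcript of GENCODE M21, with 2129 bases, 1 stretch of 26 bases within the coding sequence had both of its ends inside the loop letters CNGCNGC at which IRE1 is known to cut, each cut falling after the third letter. It lies in a single exon at chr11:5524279-5524304 on the plus strand of GRCm38. The stretch is in capitals, with 10 bases of the exon on each side.
Xbp1: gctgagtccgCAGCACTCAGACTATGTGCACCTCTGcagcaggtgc
With it, the reading frame ends after 267 residues, and without it after 371, which is the longer, active form of the factor. Spliced and unspliced Xbp1 were not analysed here.

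The sensors and proteases differed widely in level, and Xbp1 stood far above the rest. Over all 6 libraries Xbp1 averaged 149 FPKM, a level above 95.3% of the 15723 genes tested. Mbtps1 followed with 36.6 FPKM (range 31.4 to 43.5), and its libraries did not overlap with those of the next gene, Atf6b, at 24.4 FPKM (18.9 to 29.1). Creb3 at 15.7, Mbtps2 at 14.3 and Ern1 at 12.9 FPKM formed a middle group whose ranges overlapped one another, and the lowest value of Atf6b reached into that of Creb3. Atf6 at 7.66 FPKM (7.22 to 8.11) and Creb3l2 at 7.09 FPKM (5.80 to 8.10) could not be ranked against each other, and both lay below every library of Ern1. Eif2ak3 was the lowest at 2.06 FPKM (1.40 to 3.23), above 19.6% of the genes tested. Of the 3 stress sensors in the narrow sense, the order by mean level was thus Ern1, Atf6 and Eif2ak3, with no overlap of libraries between neighbours. Overlap here reflects scatter between libraries only. An error that a gene carries in all 6 libraries, such as in the length used for its FPKM, would not show in it.

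**Figure D1:**
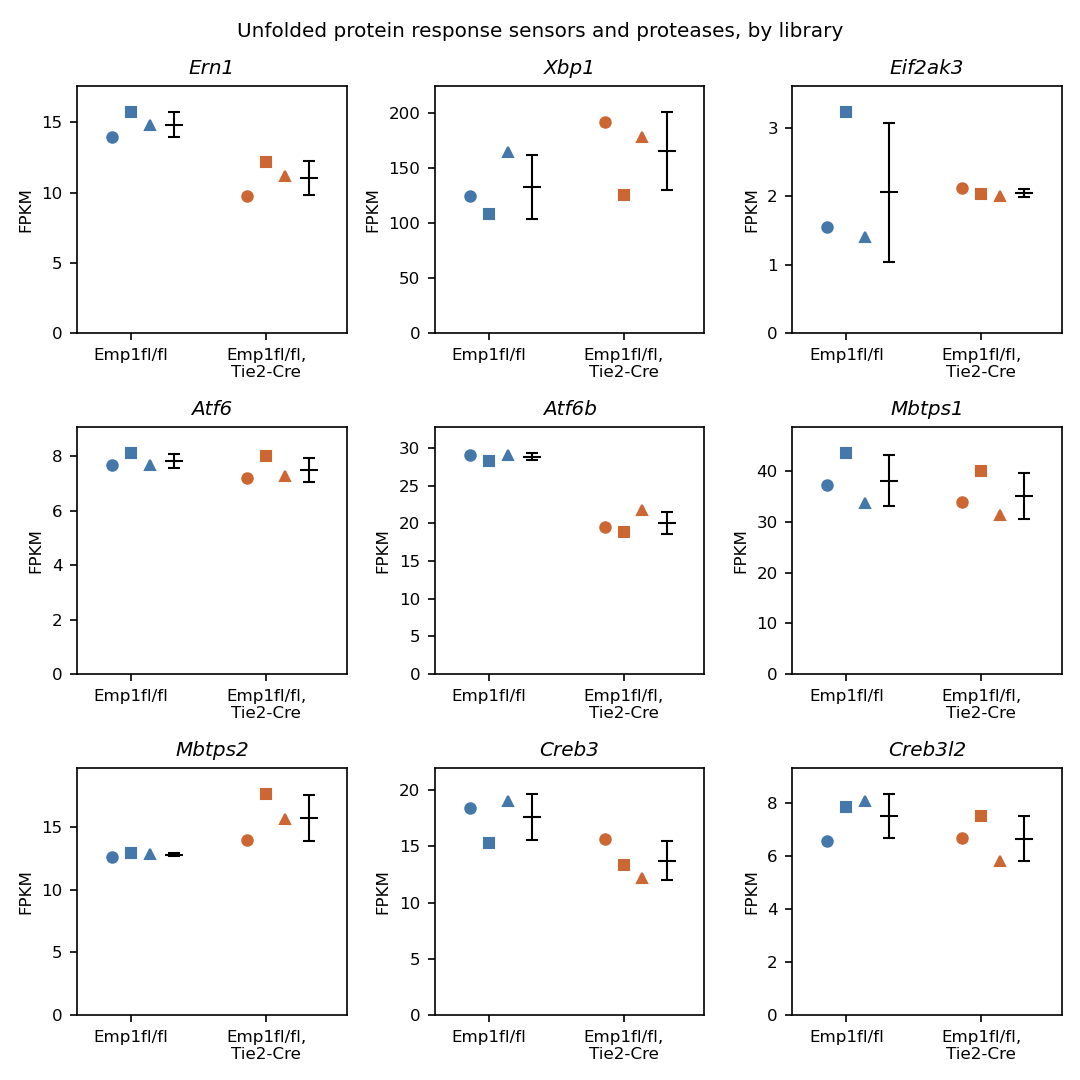
FPKM of each gene (vertical axes, from 0) in the 3 Emp1fl/fl and 3 Emp1fl/fl,Tie2-Cre libraries; circle, square and triangle mark replicates 1, 2 and 3 and black bars the mean ± SD. Ern1 and Atf6b lay lower and Mbtps2 higher in all 3 Emp1-deficient libraries, whereas the other 6 genes overlapped between genotypes.

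None of the 9 genes passed the test for a difference between genotypes (limma on log2(FPKM + 1), Benjamini-Hochberg adjusted p under 0.05 over all 15723 genes), where 0.267% of all genes did, 25 higher and 17 lower in Emp1-deficient cells (11 and 13 after rescaling to TPM). Emp1 itself also missed this threshold, with a log2 difference of -1.53 (SE 0.25, limma adjusted p = 0.0577). At an unadjusted p under 0.05 there were 3 of the 9, all lower in Emp1-deficient cells (Atf6b, Ern1 and Creb3), against 16.2% of all genes tested, 6.5% higher and 9.72% lower. Genotypes were without overlap in 3 of them, 2 lower and 1 higher, against 22.1% of all genes, 13.2% lower and 8.91% higher. The sign of the log2 fold change was negative in 6 of them (median -0.12), as in 56.9% of all genes (median -0.05). Counts this small do not set the group apart from the background, so the genes are described one by one. In bulk libraries, fewer cells of a type and less RNA per cell cannot be told apart.

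The IRE1 arm held genes with means on opposite sides. Ern1 (chromosome 11, 106394650 to 106487852), which encodes IRE1alpha, measured 13.94, 15.71 and 14.82 FPKM in the control libraries, against 9.76, 12.16 and 11.20 FPKM in the Emp1-deficient ones. Each Emp1-deficient library was below each control, and the mean was 14.8 ± 0.885 against 11.04 ± 1.21 FPKM (SD, n = 3 each), a ratio of 0.745. The log2 difference of -0.40 (SE 0.13, 95% interval -0.70 to -0.10) missed the threshold (limma adjusted p = 0.194).

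Xbp1 (chromosome 11, 5520659 to 5525893) measured 124.93, 108.41 and 165.19 FPKM in the control libraries, against 192.62, 125.55 and 178.51 FPKM in the Emp1-deficient ones. Emp1-deficient replicates 1 and 3 were above every control, while replicate 2 lay among the controls. The ratio of means was 1.25, and the log2 difference of 0.31 (SE 0.20, limma adjusted p = 0.496) had a 95% interval that as a fold runs from 0.904 to 1.71. Leaving out control replicate 2 or 3 gave 0.18 or 0.48, and leaving out Emp1-deficient replicate 1 or 2 gave 0.19 or 0.50, with no call in any of these. Xbp1 took between 44.6% and 63.9% of the summed FPKM of the 9 genes in a library, so that sum, 243 to 292 FPKM in controls and 245 to 302 FPKM in Emp1-deficient libraries, largely follows Xbp1.

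Xbp1 is also an abundant gene of plasma cells, and plasma cell transcripts differed widely between libraries. The constant region gene Igkc measured 58.9, 341 and 541 FPKM in the control libraries, against 1379, 302 and 967 FPKM in the Emp1-deficient ones, so the 3 libraries highest in Xbp1 were also the 3 highest in Igkc. The list of 13 plasma cell genes summed to 143 to 620 FPKM in controls and 446 to 2459 FPKM in Emp1-deficient libraries (exact two-sided permutation p = 0.2), and 10 of them reached 1 FPKM in at least 3 libraries. The sum came mostly from Igkc and Ighg2b. The 3 libraries highest in Xbp1 were not the 3 highest in Ighg2b, Igha or Ighm: Ighg2b was at 15.7, 1.37 and 15.01 FPKM in controls against 558, 46.6 and 788 FPKM, and Igha at 10.8, 19.3 and 2.84 FPKM against 19.6, 12.6 and 7.41 FPKM, and Ighm was highest in control replicates 1 and 2 (44.2 and 215 FPKM). Ighg2c was at 15.8, 1.26 and 10.9 FPKM in controls against 435, 49.9 and 105 FPKM. Ighg2b and Ighg2c were thus both higher in every Emp1-deficient library than in any control. Of the members that are no immunoglobulins, Mzb1, a chaperone-like ER protein of these cells, was highest in the same 3 libraries as Xbp1, with 0.43, 1.96 and 5.64 FPKM in controls against 11.5, 0.91 and 6.16 FPKM, whereas Jchain (2.72 to 25.8 FPKM) and Fkbp11 (17.2 to 29.9 FPKM) were not. Prdm1 ranged from 0.54 to 1.08 FPKM, Tnfrsf17 from 0.13 to 0.98 FPKM, Irf4 from 0.44 to 1.38 FPKM, Slamf7 from 0.17 to 0.64 FPKM and Tent5c from 2.0 to 3.6 FPKM, and Sdc1 was at 3.85 to 11.6 FPKM in controls and 2.07 to 2.61 FPKM in Emp1-deficient libraries. None of the 13 was at 0 throughout, and their part in the Xbp1 values was not tested. The ER chaperone gene Hspa5 (BiP), on the ATF6 target list below, was highest in the same 3 libraries as Xbp1. It was at 848 and 952 FPKM in Emp1-deficient replicates 1 and 3 and 710 FPKM in control replicate 3. Other listed ATF6 and XBP1 targets were divided. Manf, Dnajb11 and Sec61a1 were also highest in these 3 libraries, whereas Herpud1, Hyou1, Dnajb9 and Ssr1, among others, were not.

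In the ATF6 arm the paralogs differed. Atf6b (chromosome 17, 34647146 to 34655074), whose cleaved product is a weaker activator than that of Atf6 and can oppose it, had the smallest p of the 9 genes. Its level was 29.02, 28.30 and 29.12 FPKM in the control libraries, against 19.56, 18.90 and 21.74 FPKM in the Emp1-deficient ones. The gap between the groups was wider than the range within either. The mean was 28.8 ± 0.447 against 20.1 ± 1.49 FPKM, a ratio of 0.696, with a log2 difference of -0.50 (SE 0.11, 95% interval -0.74 to -0.26). With a limma adjusted p of 0.0871 it missed the threshold and ranked 188 by p among all genes. It passed when only protein-coding genes of 400 bp of exons or more were tested (limma adjusted p = 0.0481), and missed with at least 5 FPKM required (0.0571). Over all 16 alternatives its log2 difference stayed between -0.56 and -0.43, with adjusted p from 0.0481 to 0.302.

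Atf6 itself (chromosome 1, 170704674 to 170867771), the main sensor of this arm, measured 7.68, 8.11 and 7.70 FPKM in the control libraries, against 7.22, 8.0 and 7.27 FPKM in the Emp1-deficient ones. The libraries overlapped and the spread was small. The log2 difference was -0.06 (SE 0.14, limma adjusted p = 0.889), with a 95% interval that as a fold runs from 0.777 to 1.19, and quantile normalization turned its sign (0.032).

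Eif2ak3 (chromosome 6, 70844515 to 70905245), which encodes PERK, was the most scattered gene among the controls. It measured 1.55, 3.23 and 1.40 FPKM there, against 2.12, 2.04 and 2.0 FPKM in the Emp1-deficient ones, which lay inside the range of the controls. The high control, replicate 2, was one of the shallowest libraries by the estimate above (relative depth 0.692). Emp1-deficient replicate 1, with the same estimate, was at 2.12 FPKM, and the part of depth was not tested. The log2 difference was 0.05 (SE 0.26, limma adjusted p = 0.957). Leaving out control replicate 1, 2 or 3 gave -0.062, 0.30 and -0.11, so these values give PERK mRNA no direction. The 95% interval as a fold, 0.686 to 1.55, is the widest of the 3 stress sensors.

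**Figure D2:**
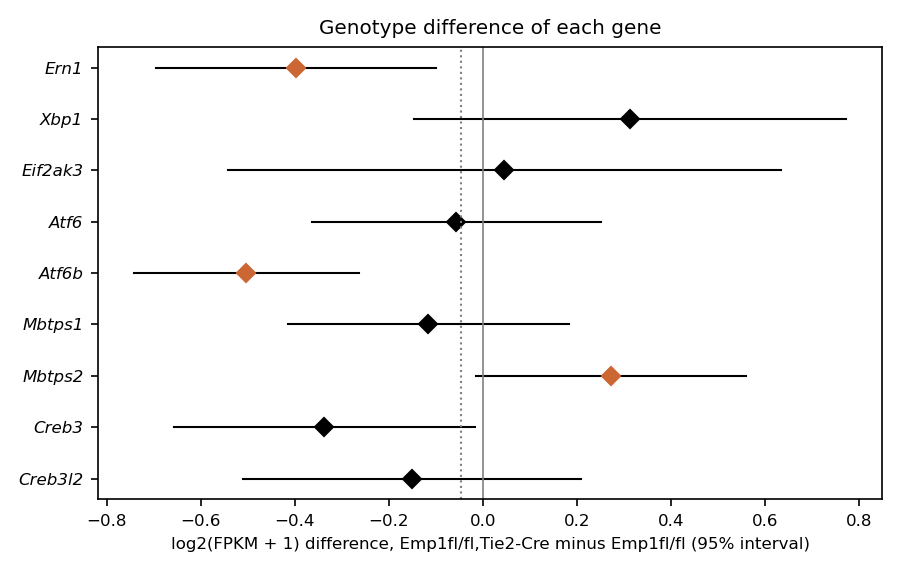
Difference of log2(FPKM + 1), Emp1fl/fl,Tie2-Cre minus Emp1fl/fl, with the 95% interval from limma for each gene; orange marks genes whose genotypes did not overlap, the solid line 0 and the dotted line the median of all tested genes (-0.05). Intervals of Ern1, Atf6b and Creb3 lie below 0, although no gene passed after adjustment over all genes.

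Of the Golgi proteases, which cut ATF6 and the CREB3 family in turn, site-1 and then site-2, only Mbtps2 was without overlap between genotypes. Mbtps2 (chromosome X, 157535371 to 157598715) measured 12.63, 12.89 and 12.88 FPKM in the control libraries, against 13.97, 17.60 and 15.61 FPKM in the Emp1-deficient ones. The controls were almost equal and every Emp1-deficient library was above them. The mean was 12.8 ± 0.147 against 15.7 ± 1.82 FPKM, with a log2 difference of 0.27 (SE 0.13, 95% interval -0.02 to 0.56) that missed the threshold (limma adjusted p = 0.336). The intronless gene Yy2, at 3.91 FPKM on average, lies inside Mbtps2 on the same strand over 2867 bp, so reads in that stretch may have been counted for either gene. Mbtps1 (chromosome 8, 119508156 to 119558735) measured 37.24, 43.49 and 33.73 FPKM in the control libraries, against 33.94, 40.06 and 31.35 FPKM in the Emp1-deficient ones. These overlapped throughout, with a log2 difference of -0.12 (SE 0.13, limma adjusted p = 0.731) and a 95% interval that as a fold runs from 0.75 to 1.14. Leaving out control replicate 2 gave -0.02, and leaving out Emp1-deficient replicate 2 gave -0.21. The 3 libraries highest in Xbp1 were the 3 lowest in Mbtps1.

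Creb3 and Creb3l2 encode membrane-bound transcription factors that resemble ATF6, are cleaved by the same proteases and act on secretory pathway genes. Creb3 (chromosome 4, 43562332 to 43567060) measured 18.46, 15.30 and 19.06 FPKM in the control libraries, against 15.66, 13.33 and 12.22 FPKM in the Emp1-deficient ones. The groups met only where Emp1-deficient replicate 1 passed control replicate 2. The log2 difference was -0.34 (SE 0.14, 95% interval -0.66 to -0.02, limma adjusted p = 0.284). In the annotation Creb3 shares 360 bp with Tln1 (91.2 FPKM) and 133 bp with Gba2 (13.4 FPKM), both on the other strand, and since no source says that strand was used in counting, reads there cannot be assigned. Creb3l2 (chromosome 6, 37327255 to 37442146) measured 6.56, 7.85 and 8.10 FPKM in the control libraries, against 6.67, 7.53 and 5.80 FPKM in the Emp1-deficient ones. These overlapped, with a log2 difference of -0.15 (SE 0.16, limma adjusted p = 0.703), which was -0.067 without Emp1-deficient replicate 3 and -0.23 without control replicate 1. Their relatives were low: Creb3l1 averaged 0.85 and 0.71 FPKM, Creb3l3 0.853 and 1.43 FPKM and Creb3l4 0.15 and 0.313 FPKM in controls and Emp1-deficient libraries. Of these only Creb3l3, at 0.33 to 1.61 FPKM, passed the filter for testing, and its range met that of Eif2ak3. The gut paralog of Ern1, Ern2, averaged 0.067 and 0.17 FPKM.

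Ratios within a library do not depend on its total and were formed, after the values had been seen, for the 4 pairs that share a role. Atf6b per Atf6 was 3.78, 3.49 and 3.78 in controls and 2.71, 2.36 and 2.99 in Emp1-deficient libraries, without overlap. The balance of the ATF6 paralogs therefore lay further towards Atf6 in each Emp1-deficient library. Atf6 itself varied little (7.22 to 8.11 FPKM), so this ratio largely restates the lower Atf6b and is no separate result. Mbtps2 per Mbtps1 was 0.339, 0.296 and 0.382 in controls and 0.412, 0.439 and 0.498 in Emp1-deficient libraries, also without overlap. Since Mbtps2 alone was already without overlap, this ratio partly restates it and is no separate result either. For both ratios the exact two-sided permutation p was 0.1, the smallest that 3 against 3 allows, and 0.2 adjusted over the 4 ratios. Xbp1 per Ern1 averaged 9.003 ± 2.12 and 15.3 ± 4.73 (SD, n = 3 each) with 1 overlap, Emp1-deficient replicate 2 at 10.3 against control replicate 3 at 11.1 (exact permutation p = 0.2, adjusted p = 0.267). Creb3 per Creb3l2 averaged 2.37 ± 0.433 and 2.08 ± 0.290 and overlapped (exact permutation p = 0.4, adjusted p = 0.4).

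**Figure D3:**
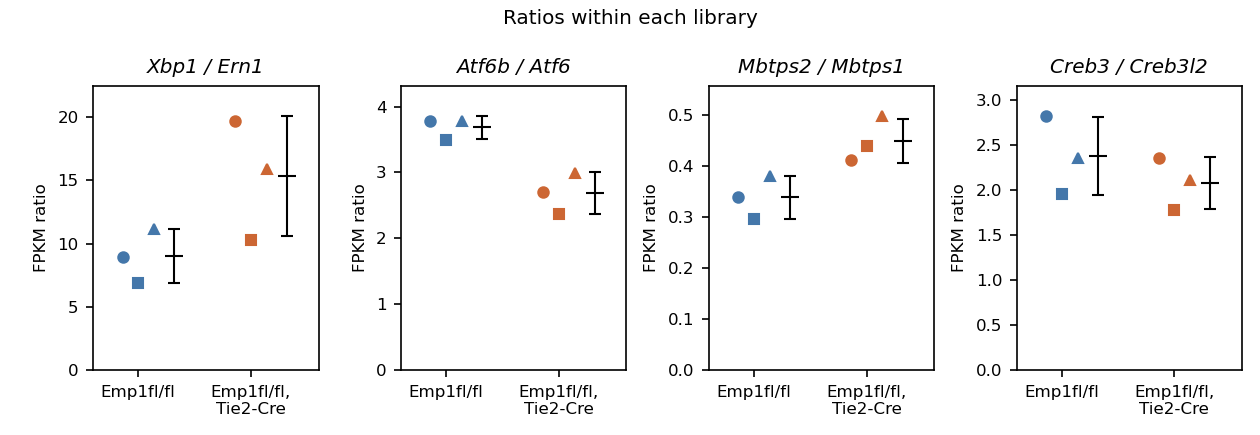
FPKM ratio of the 2 genes of each pair within each library (vertical axes, from 0); circle, square and triangle mark replicates 1, 2 and 3 of Emp1fl/fl and of Emp1fl/fl,Tie2-Cre, and black bars the mean ± SD. Atf6b / Atf6 was lower and Mbtps2 / Mbtps1 higher in all 3 Emp1-deficient libraries, and the other pairs overlapped.

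Promoter windows of 300 bases (250 before and 50 after the RefSeq start, GRCm38.p6) were at hand for 8 of the 9 genes, Atf6 being the exception. The search covered 8 motifs, picked with the values known, some lying within others (CCAAT and CCACG in the ER stress element, ACGT in TGACGT). Searched on both strands, none held the full ER stress element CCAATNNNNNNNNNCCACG, found in 0.119% of 32851 mouse promoter windows, or the unfolded protein response element TGACGTGG, found in 0.676%. The plain CCAAT box, in 37.4% of windows, was in those of Eif2ak3 (6 matches), Creb3l2 (2) and Atf6b (1). CCACG, in 32.8% of windows, was in those of Ern1, Mbtps1 and Creb3, ACGT, in 30.9%, in those of Xbp1, Atf6b, Creb3 and Creb3l2, TGACGT, in 7.51%, in that of Creb3l2, and the sterol element letters TCACNCCAC, in 1.24%, in none. The ETS-family letters CCGGAAG, in 8.86% of windows, were in those of Ern1, Atf6b and Mbtps2, which are also the 3 genes without overlap between genotypes. Ern1 and Atf6b were lower and Mbtps2 higher in Emp1-deficient libraries, so these genes share no direction. The 100 bases before the start of these 3 are shown because this was the 1 motif of 8 whose matches coincided with those genes, a choice made after the values were seen, 5′ to 3′ on the strand of the gene, with the match in capitals (for Atf6b on the opposite strand). A match is a description of letters and not a binding site. The windows are chr11:106487797-106487896 (minus strand), chr17:34647046-34647145 (plus strand) and chrX:157598716-157598815 (minus strand).
Ern1: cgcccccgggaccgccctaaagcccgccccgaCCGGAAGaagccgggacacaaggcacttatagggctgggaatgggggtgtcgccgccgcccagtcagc
Atf6b: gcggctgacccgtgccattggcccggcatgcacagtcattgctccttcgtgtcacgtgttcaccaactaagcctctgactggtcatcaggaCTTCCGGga
Mbtps2: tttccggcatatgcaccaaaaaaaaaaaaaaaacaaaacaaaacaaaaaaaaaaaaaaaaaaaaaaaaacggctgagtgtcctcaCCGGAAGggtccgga

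The genes around the sensors were read as lists without the 9 genes, some of which share members such as Hspa5. In none of the 8 lists did a gene pass the limma test over all genes in either direction, and counts at an unadjusted p under 0.05 are given beside each, to be read against 6.5% higher and 9.72% lower among all genes. Among 4 tested relatives of the sensors and other eIF2alpha kinases that count was 0. Of 15 IRE1 partners, which include the ligase Rtcb that rejoins cut Xbp1 mRNA, 12 had a positive log2 fold change (median 0.16), and 1 was higher and 0 lower at that p. Rtcb averaged 140 and 155 FPKM and the adaptor Traf2 32.1 and 34.7 FPKM in controls and Emp1-deficient libraries, and Hspa5 559 ± 131 and 814.5 ± 157 FPKM (limma adjusted p = 0.221). Of 23 XBP1 targets 15 were positive (median 0.07), 3 higher and 1 lower at that p, and the genotypes did not overlap in 5 higher and 2 lower, against 8.91% and 13.2% of all genes. The 5 higher were Dnajb9, Ssr1, Ssr3, Serp1 and Spcs3, and the 2 lower were Derl1, of ER-associated degradation, at 56.6 and 47.5 FPKM on average (limma adjusted p = 0.229), and Wfs1, a membrane protein of the ER, at 1.92 and 1.37 FPKM (limma adjusted p = 0.553). Ssr1, of the complex at the ER translocation channel, measured 59.73, 60.09 and 54.65 FPKM in the control libraries, against 76.76, 69.13 and 83.72 FPKM in the Emp1-deficient ones (limma adjusted p = 0.132). Serp1, which stabilizes membrane proteins during translocation, averaged 74.9 and 96.8 FPKM (limma adjusted p = 0.138). Substrates of IRE1-dependent decay centred on 0.01 over 7 tested genes (0 at that p), with Bloc1s1, the best known of them, at 113 and 125 FPKM.

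Of 15 ATF6 targets 6 were positive (median -0.08), 2 higher and 1 lower before adjustment (6.5% and 9.72% of all genes), and the genes with the smallest p went opposite ways. Herpud1, of ER-associated degradation, measured 235.76, 269.72 and 287.03 FPKM in the control libraries, against 364.87, 368.68 and 494.93 FPKM in the Emp1-deficient ones (limma adjusted p = 0.0989). Hyou1, an ER chaperone, measured 10.40, 9.34 and 12.19 FPKM, against 7.0, 7.05 and 6.03 FPKM (limma adjusted p = 0.118). In both genes the genotypes did not overlap. Of 12 tested genes of ATF6 transport, cofactors and attenuators 5 were positive (median -0.07; 1 higher and 1 lower at that p), among them Yy1, a factor that ATF6 recruits, at 7.71 and 9.74 FPKM. Sec24b of the same list was lower, at 26.8 and 21.4 FPKM (limma adjusted p = 0.300), and neither gene overlapped between genotypes. Of 18 genes around PERK 10 were positive (median 0.04; 2 higher and 2 lower before adjustment, where 16.2% of all genes lay in either direction). Ddit3, which encodes CHOP, averaged 115 and 163 FPKM (limma adjusted p = 0.141), while Atf4, which drives it, averaged 135 and 110.5 FPKM (limma adjusted p = 0.268), each without overlap between genotypes. Eif2b4 averaged 33.7 and 27.2 FPKM without overlap (limma adjusted p = 0.197). Eif2s1, which encodes eIF2alpha, averaged 96.0 and 131 FPKM with overlap (limma adjusted p = 0.227).

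Other proteins that the Golgi proteases cut or that steer them gave 5 positive of 9 (median 0.02; 0 higher and 1 lower before adjustment). Srebf1, a lipid synthesis factor released by both proteases, had the largest log2 difference of any listed gene. It measured 47.01, 55.64 and 62.56 FPKM in the control libraries, against 35.99, 19.93 and 25.77 FPKM in the Emp1-deficient ones. All 3 were below every control, with a log2 difference of -1.02 (SE 0.20) that missed the threshold (limma adjusted p = 0.0857). Its paralog Srebf2 averaged 121 and 107 FPKM and the escort Scap 23.0 and 19.6 FPKM, with overlap.

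**Figure D4:**
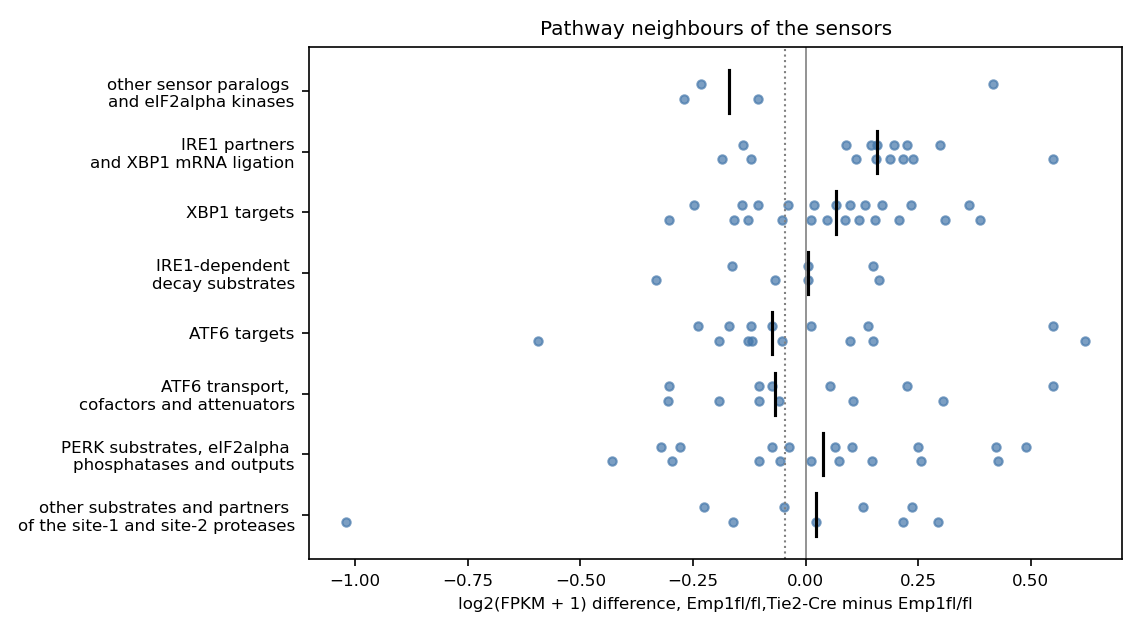
Difference of log2(FPKM + 1), Emp1fl/fl,Tie2-Cre minus Emp1fl/fl, for each tested gene of the 8 lists (points, staggered for visibility), with the list median as a black bar, 0 as the solid line and the median of all tested genes (-0.05) as the dotted line. List medians lay between -0.17 and 0.16, and Srebf1 is the single point near -1.02.

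Likeness over the 6 libraries was measured by Pearson's r of log2(FPKM + 1) against 12133 other tested protein-coding genes. With so few libraries high values are common: 196 genes exceeded 0.95 with Ern1, 14 with Xbp1, 59 with Atf6 and 4 with Eif2ak3. The closest were Mov10 (0.997), Wbp1l (0.996) and Ikbke (0.994) for Ern1, Itgb2 (0.975), Higd1a (0.972) and Fstl3 (0.971) for Xbp1, Zc3h12b (0.995), Tspan5 (0.994) and Rab36 (0.992) for Atf6, and Wfdc18 (0.984), Rbm44 (0.982) and Amd1 (0.966) for Eif2ak3. Every one of these values also carries what the libraries share in depth and composition.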

How the data were processed

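RNA was reverse-transcribed, amplified by Geo-seq, a low-input method, and made into libraries with a transposase-based kit, per the labels' protocols; amplification adds scatter. The values are the authors' FPKM with 2 decimals. The build mm10 and the tools DESeq2, HTSeq, Cufflinks 2.1.1 and Bowtie 0.12.9 are named, without roles, per the submitters' processing notes; the step that produced the deposited FPKM is not given in the sources used. Symbols, positions and exonic lengths came from GENCODE M21 (GRCm38, which mm10 denotes), matching 55141 of 55401 identifiers; a symbol shared by several identifiers stayed on the one with the highest mean.

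The 15723 genes that reached 1 FPKM in 3 or more of 6 libraries, all 9 genes included, entered a limma fit (version 3.58.1, R 4.3.3) of log2(FPKM + 1) (trend and robust, genotype as the only term, 4 residual degrees of freedom), which understates changes of low genes. Intervals are from that fit. Ratios and list sums used exact two-sided permutation (SciPy 1.17.1). In 10 simulations of this comparison with 15723 genes, a log2 change of 1 was found in 71.1% and one of 2 in 93.8% of the changed genes, with 4.12% false calls. The changed genes were drawn only from those above a minimum mean level, which Eif2ak3 and Emp1 do not reach. Smaller changes, the size seen here, were not simulated. Named genes were the 9 members, up to 3 per list with the smallest p, the most abundant and defining markers, and the 3 genes most like each of Ern1, Xbp1, Atf6 and Eif2ak3; other named genes were chosen after their values were seen. The members and lists were chosen with earlier results of these data known. Alternatives covered the pseudocount, filter, scaling, array weights, replicate block, gene class and each library left out.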

Additional observations from a re-analysis of the deposited data

How the results depend on the processing

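No gene of the 9 was called in 15 of the 16 alternatives; when only protein-coding genes of 400 bp of exons or more were tested, the count of members called lower was 1, Atf6b (adjusted p = 0.0481, over a range of 0.0481 to 0.302); the cause was not tested. Ern1, Xbp1, Atf6b, Mbtps1, Mbtps2, Creb3 and Creb3l2 kept their sign in all 16. Atf6 turned to 0.032 with quantile normalization, and Eif2ak3 to -0.036 with array weights, with leave-one-out values of -0.11 to 0.30 (-0.062 without control replicate 1); the cause was not tested.

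Over all genes, 25 were higher and 17 lower. The counts were 14 higher and 15 lower at pseudocount 0.1, 6 and 9 at pseudocount 5, 2 and 3 with no filter, 49 and 64 with at least 5 FPKM, 11 and 13 as TPM, 15 and 9 with quantile normalization, 17 and 11 with median-ratio scaling, 37 and 45 with array weights, and 70 and 142 among the longer protein-coding genes. Leaving out 1 library gave 3 to 20 higher and 2 to 20 lower.

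With the replicate block 6 were higher and 2 lower, and no member call changed. Deviations of same-numbered libraries correlated at -0.108, 0.0859 and -0.0523 across genes. These values show no pairing by number over all genes, but they cannot tell whether some genes vary with it. Depth is unknown, so no counting error is given for any of the 9 genes.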
